A study of Mus musculus with 11 samples.

Results

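The response of the biliary lineage to a choline-deficient, ethionine-supplemented (CDE) diet was described by comparing sorted YFP+ mouse liver cells from CDE-fed animals with YFP+ cells from untreated (UTR) animals. These are 3 CDE and 2 UTR samples, 5 of the 11 samples of the series, chosen by their labels, and every gene with 1 symbol on the array was followed, 23185 in all. The study asked, by its title, how far the biliary epithelium gives rise to progenitor cells and to hepatocytes after injury. It measured total RNA of sorted cells on Affymetrix MoGene 2.0 ST arrays. The remaining samples are 3 YFP+ samples from mice on a DDC diet, for which the labels give 5 weeks, and 3 YFP- samples, which entered no comparison here.

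The labels give the 5 samples as YFP+ CDE and YFP+ UTR and call the cells of both groups liver progenitor cells. All were sorted live from the non-parenchymal fraction on the same YFP gate, set on wild-type mice. The promoter that drives the YFP label, the age, sex and strain of the mice and the duration of the CDE diet are not stated in the labels. Whether each array holds a separate animal or a pool is not stated either, so a p-value here reflects the spread among arrays alone, and that spread may be technical. The DDC arrays served here to estimate the spread and as a second injury diet to set beside CDE. Because CDE minus UTR and CDE minus DDC share the CDE arrays, the values of each are given side by side and are not independent.

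Cholangiocytes line the bile ducts, and in chronic injury cells with biliary markers expand into the parenchyma as a ductular reaction. A lack of choline limits the phosphatidylcholine that the liver needs to export fat, and ethionine competes with methionine, so that the diet gives a fatty, injured liver. Hepcidin, encoded by Hamp, is the hormone that lowers iron export from cells by binding ferroportin. It is known chiefly from hepatocytes, where bone morphogenetic protein (BMP) signals through SMAD factors and interleukin-6 through STAT3 raise its transcription. Id1, Id3, Smad6, Smad7 and Atoh8 are textbook targets of the same BMP to SMAD route.

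Values are the deposited expression values, taken to be log2, and differences are CDE minus UTR group means with the standard error (SE) of the fit. Medians of the 8 YFP+ arrays ran from 5.70 to 5.77 and their lower quartiles from 4.27 to 4.38. Values below the lowest of these quartiles are called near the floor. Across genes, CDE arrays correlated with each other at 0.989 to 0.991, the UTR arrays with each other at 0.987, and CDE with UTR arrays at 0.984 to 0.99. These correlations run over genes, which are not independent replicates.

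Biliary markers were bright on all 5 arrays, and so were some hepatocyte markers. Krt19 and Krt7, keratins of bile ducts, Sox9, a transcription factor of ducts, and Epcam, an epithelial adhesion molecule, ran from 8.94 to 11.54 over the 5 arrays, whose upper quartiles ran from 7.63 to 7.69. The endothelial markers Pecam1, Stab2, Clec4g and Lyve1 ran from 4.78 to 6.73 and the stellate cell markers Lrat, Des, Pdgfrb and Col1a1 from 4.48 to 5.95. The macrophage markers Adgre1, Clec4f, Cd68 and Marco ran from 4.32 to 8.76, with Cd68 at the top. The leukocyte markers Ptprc, Cd3e, Cd79a and S100a8 ran from 3.83 to 7.63, with S100a8 on CDE replicate 2 at the top. Albumin (Alb) and transthyretin (Ttr), secreted by hepatocytes, were bright on all 5 arrays, at 12.34 to 12.58 for Alb and 12.87 to 13.15 for Ttr. Other hepatocyte markers were lower: Apoa1 ran from 6.39 to 8.81, Apoc3 from 4.24 to 7.80, Cyp2e1 from 5.19 to 6.09 and Cps1 from 4.52 to 5.13. Levels of different probes do not rank these cell types.

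On each side 1 array stood apart. CDE replicate 2 was high for hepatocyte transcripts: Apoa1 was at 6.48, 8.81 and 6.39 in the CDE arrays and at 6.42 and 6.50 in the UTR arrays, and over 30 hepatocyte genes the mean shift from the UTR mean was 0.11, 0.84 and 0.14 in the CDE arrays. UTR replicate 2 was high for transcripts of mucosal epithelium: Duoxa2, the maturation factor of dual oxidase, was at 8.37 there and between 4.30 and 4.56 on the 7 other YFP+ arrays. Where leaving out either array moved a list's printed counts by over 1.5 times, both are given. In sorted bulk RNA, fewer cells of a type and less RNA per cell cannot be told apart.

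No gene passed an adjusted p of 0.05 between CDE and UTR in limma's test across all genes (0% of 23185), so no gene is said here to rise or fall on the diet. The lowest adjusted p was 0.0558, for Rnu7. At an unadjusted p under 0.05 there were 1492 genes, 829 higher in CDE (3.58%) and 663 lower (2.86%). List counts given below at that p are to be read beside these shares. By size, 51 genes (0.22%) were higher in CDE by at least 1 log2 unit with every CDE array above every UTR array, and 43 (0.185%) were lower in the same way. The share of all genes without overlap at any size was not counted, and with 3 and 2 arrays lack of overlap alone is weak evidence of a difference. Lack of overlap among named genes follows in part from how most were chosen, by low p or by arrays apart. Over all genes the median difference was 0.0037 log2 units, with 51.05% of genes above 0. The direct comparison of the diets, CDE minus DDC, called 172 genes higher in CDE (0.742%) and 97 lower (0.418%) at an adjusted p of 0.05. That count rests on each array: without CDE replicate 3 it was 16, without CDE replicate 1 it was 25 and without DDC replicate 1 it was 41. Among the genes named by rule 21 were called, and 2 of these calls held when any 1 CDE or DDC array was left out.

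**Figure D1:**
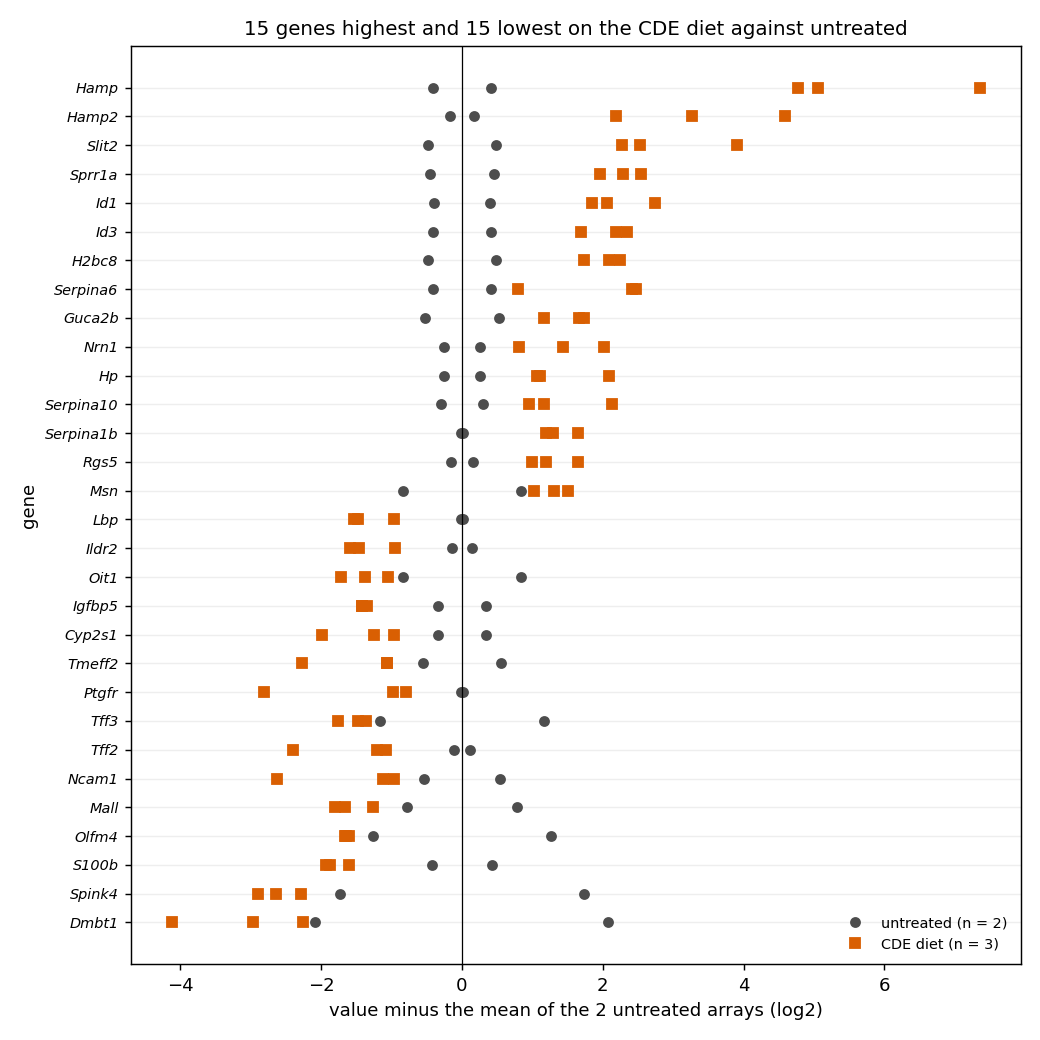
Each row is a gene of the 15 highest and 15 lowest in CDE among genes with an unadjusted p under 0.05, no overlap of arrays and a mean of at least 6 in the higher group, with small RNAs, predicted genes and olfactory receptors left out. The x axis gives each array's value minus the mean of the 2 untreated arrays, in log2 units, with squares for CDE and circles for untreated. Hamp stands farthest to the right, and the 2 untreated circles lie far apart for Dmbt1, Spink4, Olfm4 and Tff3.

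Hepcidin showed the largest difference of the comparison. Hamp was at 10.21, 12.52 and 9.93 in the 3 CDE arrays and at 4.75 and 5.57 in the 2 UTR arrays. Every CDE array was above both UTR arrays, by more than 4 log2 units, and the DDC arrays, at 3.82, 5.33 and 6.48, lay with the UTR arrays. The difference was 5.73 ± 0.90 (SE), a fold of 53.1 on the deposited scale, with an adjusted p of 0.264 in limma. Against DDC the difference was 5.68 ± 0.81 and was called (adjusted p = 0.0247), a call kept in 2 of the leave-outs of 1 CDE or DDC array. Hepatocyte transcripts were high on the array with the highest Hamp, CDE replicate 2, and without that array the Hamp difference from UTR was 4.91.

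Hamp2, the second hepcidin gene of the mouse, followed the same order of groups. Its values were 5.82, 8.22 and 6.89 in CDE, 3.46 and 3.80 in UTR, and 3.93, 4.03 and 3.67 in DDC. The lowest CDE array was above all UTR and DDC arrays, and the UTR mean was near the floor, where values carry no detection call. The difference was 3.34 ± 0.56 (adjusted p = 0.315) from UTR, 2.72 without CDE replicate 2, and 3.10 ± 0.50 from DDC (adjusted p = 0.0355). The genes are close copies, and whether probes of one also read the transcript of the other was not tested.

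The inhibitors of DNA binding Id1 and Id3, which hold basic helix-loop-helix factors off DNA, were also higher on all CDE arrays. Id1 was at 10.52, 11.20 and 10.31 in CDE, 8.06 and 8.85 in UTR and 8.88, 8.85 and 9.04 in DDC. Id3 was at 9.84, 9.99 and 9.35 in CDE, 7.24 and 8.06 in UTR and 8.67, 8.35 and 8.50 in DDC. For both genes the CDE arrays lay above all UTR and DDC arrays. The difference from UTR was 2.22 ± 0.29 for Id1 and 2.08 ± 0.26 for Id3, each with an adjusted p of 0.18 in limma, and without CDE replicate 2 it was 1.95 and 1.94. From DDC, Id1 differed by 1.75 ± 0.26 (adjusted p = 0.028), while Id3, at 1.22 ± 0.24, did not pass (adjusted p = 0.0599). Id2, a family member, was at 11.66, 11.61 and 11.58 in CDE and 11.79 and 11.59 in UTR, so its arrays overlapped.

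The other BMP targets had smaller differences. Smad7, an inhibitory SMAD, was at 9.26, 9.32 and 9.21 in CDE against 8.74 and 8.96 in UTR, a difference of 0.42 ± 0.11 (adjusted p = 0.655). Smad6, also inhibitory, was at 6.57, 6.22 and 6.81 in CDE against 5.87 and 6.29 in UTR, so the arrays overlapped. Atoh8, a helix-loop-helix factor, was named after its values were seen: it was at 7.70, 8.03 and 7.34 in CDE and 6.22 and 7.20 in UTR. Of the 38 measured genes of the BMP and hepcidin list, 23 were above 0 and the median difference was 0.035, beside 0.0037 over all genes. Without CDE replicate 2 that median was 0.0019. At an unadjusted p under 0.05, 7 members were higher in CDE and 0 were lower, and 4 of them met the size rule. The counts of 7 and 0 were the same without CDE replicate 2 and without UTR replicate 2. Against DDC 4 of the 38 members were called higher in CDE, beside 0.742% over all genes. These were Hamp, Hamp2, Id1 and the ligand gene Bmp7, for which CDE and UTR arrays overlapped. The lowest difference on the list was -0.55.

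**Figure D2:**
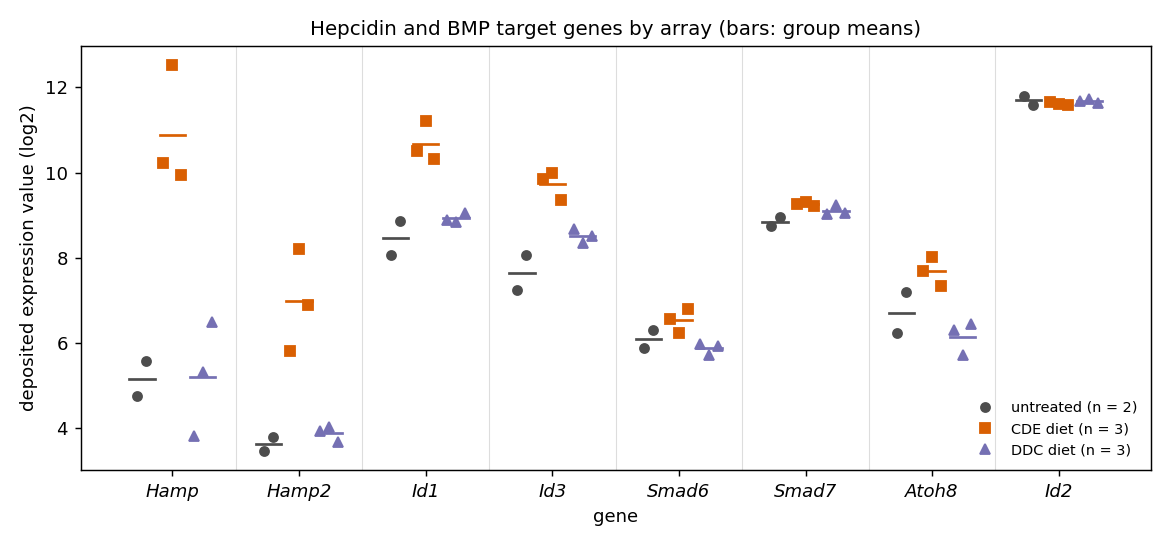
The y axis gives the deposited value in log2 units for 8 genes, with 1 point per array and bars for group means of 2 untreated, 3 CDE and 3 DDC arrays. The 3 CDE points lie above all others for Hamp, Hamp2, Id1, Id3 and Atoh8, overlap with UTR for Smad6, and do not stand apart for Id2.

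Haptoglobin (Hp), described with the secreted proteins, had the largest difference among the iron handling genes, at 1.42, and the others were below 1 log2 unit. Slc40a1, the iron exporter ferroportin to which hepcidin binds, was at 8.05, 8.39 and 8.45 in CDE and 7.24 and 8.04 in UTR. The lowest CDE array was level with the higher UTR array within 0.1, and the difference of 0.65 ± 0.22 did not pass (adjusted p = 0.7). Fth1, the ferritin heavy chain that stores iron, differed by 0.31 ± 0.12, and Pcbp1, an iron chaperone, by -0.57 ± 0.23. Without UTR replicate 1 the differences of Slc40a1 and Pcbp1 were 0.25 and -0.15, and without UTR replicate 2 that of Fth1 was 0.16. Of 29 measured iron genes 17 were above 0 with a median of 0.02, and 3 were higher and 1 lower at an unadjusted p under 0.05. Without CDE replicate 2 these counts were 1 and 2.

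Rnu7, the U7 small nuclear RNA that guides the cutting of histone messenger 3′ ends, had the lowest p of all genes. It was at 5.82, 6.20 and 5.74 in CDE, 4.10 and 3.83 in UTR and 3.24, 3.56 and 3.48 in DDC. The CDE arrays lay apart from all 5 others, and the UTR mean was near the floor. The difference was 1.95 ± 0.17 from UTR (adjusted p = 0.0558 in limma) and 2.50 ± 0.15 from DDC (adjusted p = 0.00167). The call against UTR depended on the fit: the adjusted p was 0.0402 with arrays centred on their medians, 0.0181 with a trended and robust variance prior, 0.0407 with array weights and 0.317 on the 5 arrays alone, and it ran from 0.0181 to 0.344 over all alternatives that gave it. The call against DDC held when any 1 CDE or DDC array was left out.

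Some histone genes and the short RNA Terc were higher in CDE than in UTR on every array. H2bc8, an H2B gene, was at 6.94, 7.29 and 7.45 in CDE, 5.68 and 4.72 in UTR and 5.95, 8.24 and 7.17 in DDC. H1f2, a linker histone gene, was at 7.56, 7.82 and 7.84 in CDE and 6.92 and 6.10 in UTR, and H1f3, another, at 6.33, 6.50 and 6.67 against 5.92 and 5.03. For these 3 genes the CDE and UTR arrays did not overlap, while the DDC arrays overlapped with CDE for H2bc8 and H1f2. Terc, the RNA template of telomerase, was at 9.26, 9.09 and 8.94 in CDE and 8.69 and 8.09 in UTR. Over the H2A, H2B, H3 and H4 clusters 19 of 30 genes were above 0 with a median of 0.08, and 3 were higher and 0 lower at an unadjusted p under 0.05, while against DDC the median was -0.18. On the list of small nuclear RNA and histone genes, 20 of 28 were above 0 with a median of 0.13. At an unadjusted p under 0.05, 7 were higher and 0 lower. Against DDC 2 of the 28 were called higher in CDE and 0 lower, beside 0.742% and 0.418% over all genes. UTR replicate 2 held the lower value for Rnu7, H1f2, H1f3, Terc and H2bc8, and without it the differences were 1.82, 0.83, 0.58, 0.41 and 1.54.

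The small nucleolar and Cajal body RNAs, which guide chemical changes of other RNAs, were read beside them. Of 107 measured members of the Snord, Snora and Scarna families 75 were above 0, with a median of 0.20, and 16 were higher and 4 lower at an unadjusted p under 0.05. Among them 8 Snord genes met the size rule upward, and 1 Snord and 1 Snora gene met it downward. The array means of the 107 genes shifted by 0.38, 0.45 and -0.14 in the CDE arrays and by -0.22 and 0.22 in the UTR arrays, so CDE replicate 3 lay among the UTR arrays. Against DDC 3 of the 107 were called higher in CDE, beside 0.742% over all genes. Named here after their values were seen, these were Snord13, Snord118 and Snord34.

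**Figure D3:**
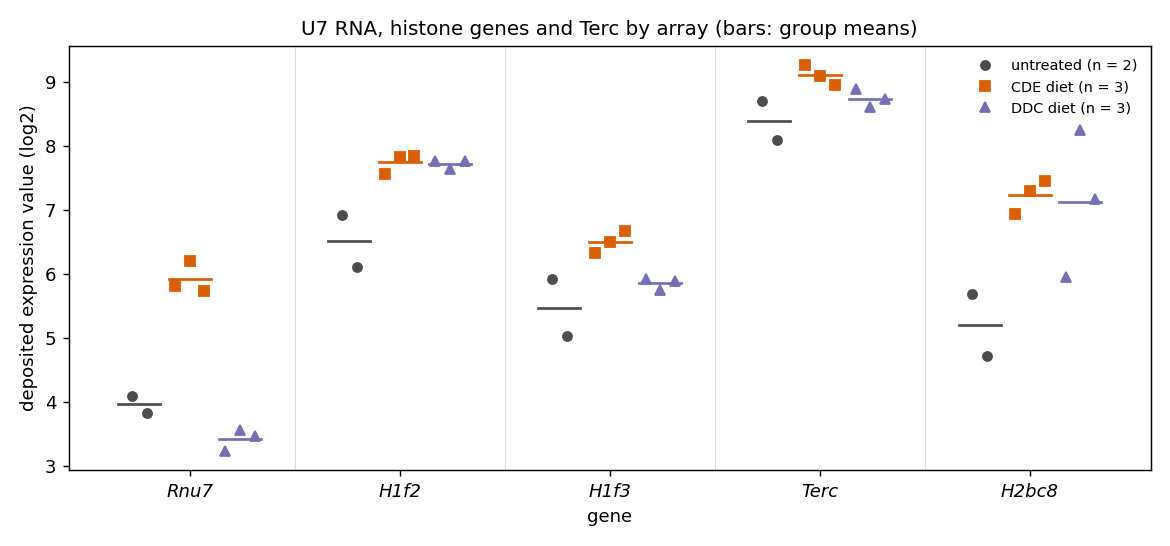
The y axis gives the deposited value in log2 units of U7 RNA, 3 histone genes and Terc, with 1 point per array and bars for group means. For Rnu7 the 3 CDE points lie between 5.74 and 6.20 and all others at or below 4.10, while for H1f2 the CDE and DDC points lie together.

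Secreted proteins of the liver were among the highest in CDE. Serpina6, corticosteroid-binding globulin, was at 7.55, 9.17 and 9.23 in CDE, 6.35 and 7.17 in UTR and 4.84, 4.76 and 5.96 in DDC. Serpina1b, an alpha-1-antitrypsin gene with near-identical copies that its probes may share, was at 10.99, 11.34 and 10.90 in CDE, 9.72 and 9.69 in UTR and 9.24, 8.49 and 9.76 in DDC. For both genes CDE was apart from UTR and DDC. The differences from UTR were 1.89 ± 0.56 and 1.38 ± 0.32, with adjusted p of 0.684 and 0.549 in limma, and those from DDC were 3.46 and 1.91 (adjusted p = 0.0269 and 0.028). Serpina10, the inhibitor that needs protein Z, differed by 1.42 ± 0.42 from UTR. C9, the last component of the complement pore, was at 8.16, 8.51 and 8.29 in CDE, 7.0 and 7.26 in UTR and 6.16, 5.96 and 6.12 in DDC. The C9 groups did not overlap, its difference from UTR was 1.19 ± 0.14 (adjusted p = 0.18), and its difference from DDC was 2.24 ± 0.12 (adjusted p = 0.00167), a call that held when any 1 CDE or DDC array was left out.

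Haptoglobin (Hp), which binds free hemoglobin, lay between the untreated and the DDC level. It was at 9.56, 10.58 and 9.60 in CDE, 8.75 and 8.24 in UTR and 11.59, 12.03 and 11.77 in DDC. Both diets were above UTR on every array, by 1.42 ± 0.31 for CDE (adjusted p = 0.51), and CDE was below DDC by a called difference of -1.88 ± 0.28 (adjusted p = 0.028). Lbp, which binds bacterial lipopolysaccharide, went the other way: it was at 8.15, 8.20 and 8.72 in CDE, 9.67 and 9.69 in UTR and 9.72, 10.03 and 9.99 in DDC. The CDE arrays were below all others, with differences of -1.33 ± 0.18 from UTR (adjusted p = 0.18) and -1.56 ± 0.16 from DDC (adjusted p = 0.0119). Fgb and Fgg, fibrinogen chains, differed by 1.69 ± 0.96 and 1.11 ± 0.41 from UTR, and without CDE replicate 2 by 0.50 and 0.68.

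As a group, 25 of 30 hepatocyte genes were above 0 with a median of 0.22, and 3 were higher and 0 lower at an unadjusted p under 0.05. Without CDE replicate 2 the median was 0.095 and the counts were 2 and 0, and without UTR replicate 2 they were 3 and 1. Of 30 acute phase and interleukin-6 response genes 20 were above 0 with a median of 0.06, which was 0.0003 without that array. Alb was at 12.48, 12.58 and 12.54 in CDE and 12.34 and 12.45 in UTR. Hnf4a, a hepatocyte transcription factor, was at 8.29, 8.39 and 8.39 in CDE and 9.22 and 8.58 in UTR, lower in CDE on every array. The fetal liver gene Afp was between 4.39 and 4.65 on all 5 arrays. The part of the hepatocyte signal of CDE replicate 2 in the differences of other genes was not tested beyond leaving that array out.

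**Figure D4:**
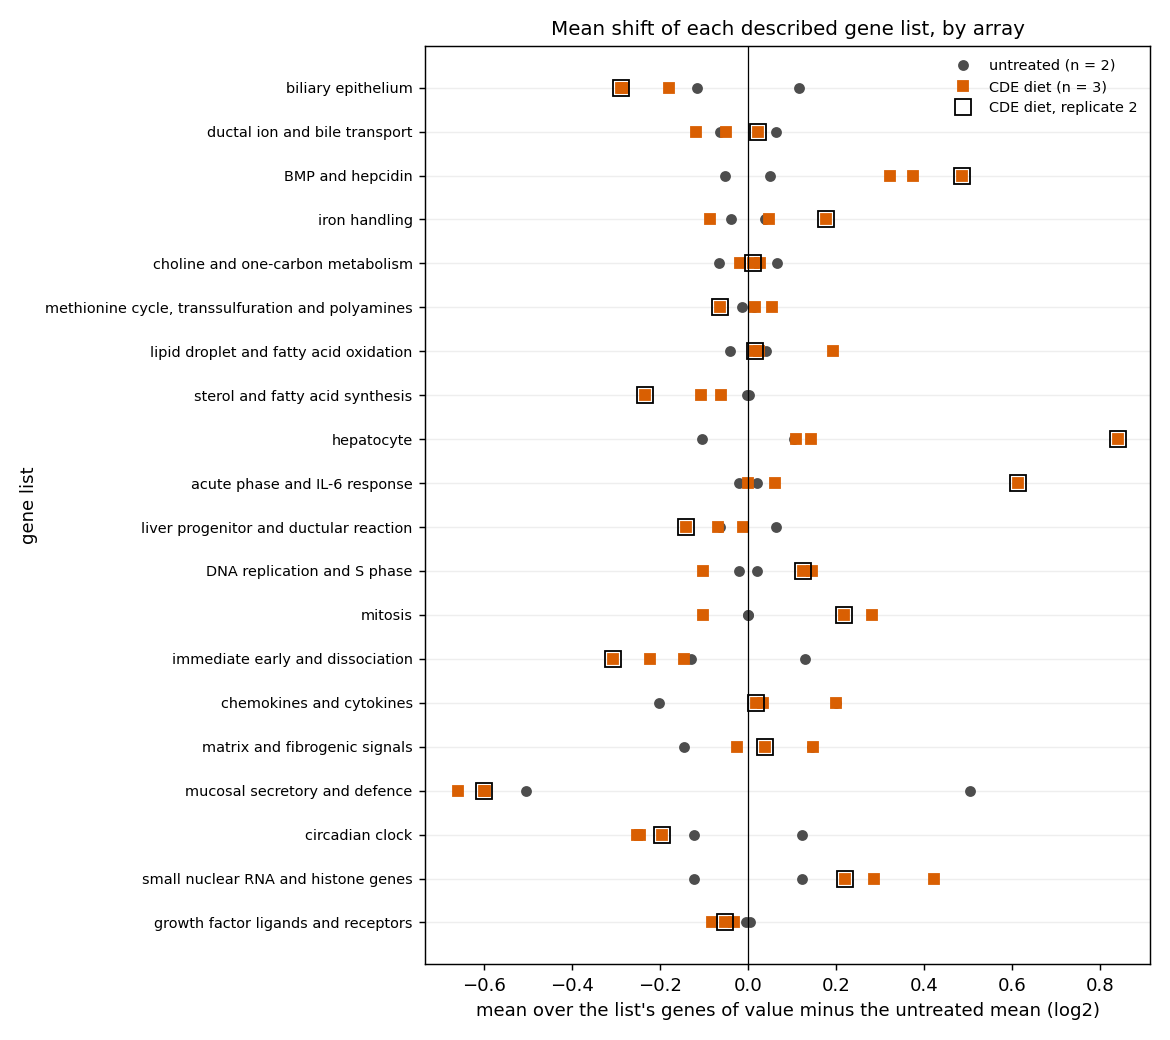
Each row is a gene list, and the x axis gives, for each array, the mean over the list of value minus the untreated mean, in log2 units. CDE replicate 2, outlined, stands at 0.84 for the hepatocyte list and 0.61 for the acute phase list, and the untreated arrays stand at -0.50 and 0.50 for the mucosal list.

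The remaining genes that were highest in CDE have varied roles. Slit2, a secreted guidance ligand of Robo receptors, was at 8.77, 10.40 and 9.02 in CDE, 6.98 and 6.01 in UTR and 7.27, 7.67 and 7.86 in DDC, and its difference from UTR was 2.90 ± 0.48 (adjusted p = 0.314). Sprr1a, a precursor of the cornified envelope that is known as an injury gene in several epithelia, was at 10.31, 10.90 and 10.64 in CDE, 8.81 and 7.90 in UTR and 10.50, 9.87 and 10.03 in DDC. Slit2 was above DDC on every array, while Sprr1a overlapped with DDC. Sprr1a differed from UTR by 2.26 ± 0.30 (adjusted p = 0.18). Nrn1, neuritin, differed by 1.42 ± 0.39 from UTR (adjusted p = 0.655) and by 2.00 ± 0.35 from DDC (adjusted p = 0.0407). Guca2b, the gut and kidney peptide uroguanylin, was at 8.24, 8.30 and 7.74 in CDE and 7.10 and 6.04 in UTR. Msn, moesin, which ties actin to the membrane, was at 8.09, 8.38 and 8.57 in CDE and 7.91 and 6.23 in UTR, and Rgs5, a regulator of G protein signals known from pericytes, at 10.95, 11.59 and 11.15 against 10.11 and 9.79. The values of Guca2b and Msn rested on UTR replicate 2: without it their differences of 1.52 and 1.28 became 0.99 and 0.44.

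Of the 15 genes highest in CDE, 7 were called against DDC, 6 of them in the same direction and Hp in the opposite one. Of the 15 lowest, 2 were called, S100b and Lbp, both lower in CDE than in DDC as well. Over all genes 0.742% were called higher than in DDC and 0.418% lower. The choice of these genes used the same CDE arrays. Just inside the choice of 15 lay Msn at 1.28 and Lbp at -1.33, and just outside it lay Cpe at 1.25 and Anxa1 at -1.26.

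The genes lowest in CDE included products of mucosal epithelia whose values rested largely on 1 untreated array. Dmbt1, a mucosal scavenger protein, was at 6.93, 5.77 and 7.64 in CDE and 7.81 and 11.98 in UTR. Spink4, a protease inhibitor of goblet cells, was at 6.99, 6.73 and 7.35 in CDE and 7.91 and 11.37 in UTR. Olfm4, known from intestinal stem cells, was at 4.65, 4.69 and 4.64 in CDE and 5.04 and 7.56 in UTR. In each the CDE arrays were below both UTR arrays, but UTR replicate 1 was within 1 log2 unit of the highest CDE array. Their differences were -3.12, -2.61 and -1.64 over both UTR arrays and -1.03, -0.88 and -0.38 without UTR replicate 2. Tff3, a trefoil peptide of goblet cells, went from -1.54 to -0.37 in the same way, Mall, a membrane raft protein, from -1.57 to -0.80, and Oit1 from -1.38 to -0.55.

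The mucosal list as a whole showed the same split. Of 29 measured genes 20 were below 0 with a median of -0.45, and 7 were lower and 1 higher at an unadjusted p under 0.05. Its array means shifted by -0.66, -0.60 and -0.60 in CDE and by -0.50 and 0.50 in UTR. Without UTR replicate 2 the median was -0.01, with 2 lower and 3 higher, and without CDE replicate 2 there were 5 lower and 3 higher. Leaving out UTR replicate 1 instead, so that UTR replicate 2 stood alone, gave 46 calls, 10 higher and 36 lower in CDE, where the lone array was assumed to vary like the other groups. In 35 of these 46 genes UTR replicate 2 lay above all 7 other YFP+ arrays, among them Duox2, which makes hydrogen peroxide at mucosal surfaces, at 7.38 against 4.35 to 4.56, Reg3g, an antibacterial lectin, at 5.63 against 3.53 to 3.79, and Muc13, a membrane mucin, at 7.97 against 4.93 to 5.57. Duoxa2, these 3 and Lgals4 were named after their values were seen. Whether cells of a mucosal type were in that sample was not tested.

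**Figure D5:**
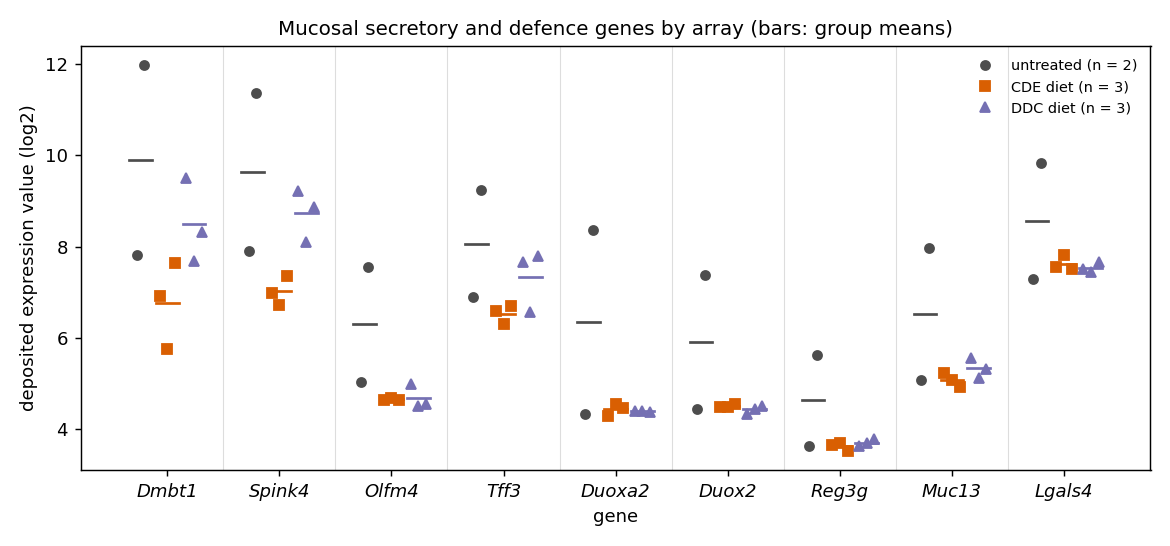
The y axis gives the deposited value in log2 units of 9 mucosal genes, with 1 point per array and bars for group means. In every gene shown the higher untreated point, UTR replicate 2, lies above all CDE and DDC points, and for Duoxa2, Duox2, Reg3g, Muc13 and Lgals4 UTR replicate 1 lies with or below the CDE arrays.

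Other genes of the lowest set rested less on that array. S100b, a calcium-binding protein, was at 5.33, 5.40 and 5.66 in CDE, 6.84 and 7.69 in UTR and 7.45, 7.81 and 8.34 in DDC. All CDE arrays were below all UTR and DDC arrays, with a difference of -1.80 ± 0.30 from UTR (adjusted p = 0.315) and -2.41 ± 0.27 from DDC (adjusted p = 0.0139). Tff2, a trefoil peptide, was at 10.38, 9.07 and 10.25 in CDE, 11.35 and 11.58 in UTR and 11.25, 11.03 and 11.48 in DDC. Tff2 was therefore below UTR and DDC on every CDE array, and its difference of -1.56 ± 0.36 was -1.45 without UTR replicate 2. Muc1, a membrane mucin of ducts, was named from its lists and is not of the lowest set. It was at 10.34, 10.70 and 10.69 in CDE, 11.16 and 11.32 in UTR and 11.23 to 11.31 in DDC. It was lower than in UTR by -0.66 ± 0.13 (adjusted p = 0.397) and called lower than in DDC by -0.69 ± 0.12 (adjusted p = 0.0403).

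Igfbp5, which binds insulin-like growth factors, was at 4.96, 4.95 and 5.03 in CDE and 6.04 and 6.71 in UTR, a difference of -1.40 ± 0.27. Ildr2, an immunoglobulin-like receptor, was at 5.36, 4.85 and 4.73 in CDE and 6.17 and 6.46 in UTR. For Igfbp5 and Ildr2 the DDC arrays overlapped with CDE. Cyp2s1, a cytochrome P450 of epithelia, differed by -1.40 ± 0.32. For 4 genes CDE replicate 2 was the lowest by far: Ptgfr, the receptor of prostaglandin F, was at 7.63, 5.79 and 7.81 in CDE against 8.63 and 8.58 in UTR, and Ncam1, an adhesion molecule of reactive ductules, at 6.59, 4.92 and 6.42 against 8.09 and 7.02. Without that array the differences of Ptgfr, Ncam1, Tmeff2 and Tff2 were -0.89, -1.04, -1.07 and -1.15.

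Genes of the biliary program differed little. Of 28 biliary genes 22 were below 0, with a median of -0.12, and 0 were higher and 2 lower at an unadjusted p under 0.05, Muc1 and Dmbt1. Without CDE replicate 2 the lower count was 1, and without UTR replicate 2 the counts were 1 and 2. Krt19 was at 10.11, 10.19 and 10.45 in CDE and 10.64 and 10.47 in UTR, and Krt7 at 9.19, 8.94 and 9.21 against 9.64 and 9.31. Both keratins were lower on all CDE arrays than on either UTR array, by -0.31 ± 0.13 and -0.36 ± 0.17, and neither passed (adjusted p = 0.779 and 0.797). Without UTR replicate 1 the difference of Krt7 was -0.19. Sox9 ran from 11.21 to 11.54 in CDE and from 11.35 to 11.45 in UTR, and Epcam from 10.52 to 10.76 in CDE and was at 10.52 on both UTR arrays. Of 28 genes of ductal ion and bile transport 18 were below 0: Slc10a2, which takes up bile acids, was at 7.94, 7.86 and 7.45 in CDE and 6.91 and 7.0 in UTR, while Slc5a1, a sodium glucose transporter, was at 9.19, 8.98 and 9.27 against 9.58 and 9.86. The differences were 0.80 ± 0.23 and -0.57 ± 0.13.

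Genes of liver progenitors and the ductular reaction went in both directions. Gpc3, a glypican of fetal liver, was at 6.23, 6.78 and 6.62 in CDE, 5.35 and 5.51 in UTR and 4.77, 4.67 and 5.18 in DDC. Its arrays did not overlap with either group, with differences of 1.12 ± 0.20 from UTR (adjusted p = 0.353) and 1.67 from DDC (adjusted p = 0.012). Cd44, a hyaluronan receptor, was at 9.37, 9.62 and 9.59 in CDE and 9.23 and 8.91 in UTR, and at 10.27 to 10.28 in DDC, so that CDE lay between them. Klf5, a transcription factor of duct cells, was at 10.18, 10.01 and 10.06 in CDE and 10.36 and 10.85 in UTR. Tnfrsf12a, the receptor of TWEAK, was at 8.21 on all 3 CDE arrays and at 8.70 and 8.05 in UTR, on both sides of CDE. Of 25 listed genes 9 were above 0 and 16 below, 3 were higher and 4 lower at an unadjusted p under 0.05, and the median was -0.055. The counts were 1 and 4 without UTR replicate 2.

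Cell cycle genes differed little from untreated cells. Mki67, the proliferation marker, was at 5.45, 6.38 and 6.56 in CDE, 6.14 and 6.08 in UTR and 7.04, 7.47 and 7.69 in DDC. The CDE arrays lay on both sides of UTR and below all DDC arrays, but the difference from DDC of -1.27 did not pass (adjusted p = 0.0844). Uhrf1, which keeps DNA methylation through replication, was at 6.36, 6.83 and 6.83 in CDE against 6.16 and 6.14 in UTR and was called lower than in DDC by -0.80 (adjusted p = 0.0396). Ccnb2, a mitotic cyclin, was at 6.64, 7.40 and 7.19 in CDE against 6.21 and 6.61 in UTR. Of 30 S phase genes 20 were above 0 with a median of 0.03, and of 29 mitosis genes 23 with a median of 0.11. On each list 2 were higher and 0 lower at an unadjusted p under 0.05, beside 3.58% and 2.86% of all genes. Without CDE replicate 2 the higher counts were 1 for S phase and 0 for mitosis. CDE replicate 1 stood apart here, with mean shifts of -0.10 on both lists, while the other CDE arrays were at 0.13 and 0.14 for S phase and at 0.22 and 0.28 for mitosis.

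Pathways that the diet bears on directly showed small differences. On the choline and one-carbon list 18 of 30 genes were above 0 with a median of 0.02, and 1 passed an unadjusted p of 0.05: Pld2, a phospholipase that releases choline, was at 7.81, 7.50 and 7.72 in CDE and 7.99 and 7.95 in UTR. Without UTR replicate 2, 2 genes were higher and 0 lower on that list, and without CDE replicate 2 neither direction had any. On the list of the methionine cycle, transsulfuration and polyamines 14 of 25 were above 0 with a median of 0.02. Gclm, which helps make glutathione, was at 9.76, 9.73 and 9.91 in CDE and 9.42 and 9.36 in UTR, and Dnmt1, the maintenance DNA methyltransferase, at 7.76, 7.81 and 7.67 against 8.10 and 7.94. Ahcy, which clears the by-product of methylation, was at 6.80, 6.63 and 6.70 in CDE and 7.03 and 7.04 in UTR. The CDE and UTR arrays of these 4 genes did not overlap, which follows in part from their choice by low p. None passed over all genes (adjusted p from 0.692 to 0.871).

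Of 37 genes of lipid droplets and fatty acid oxidation 24 were above 0 with a median of 0.06, and 4 were higher and 0 lower at an unadjusted p under 0.05, with 2 higher and 0 lower without CDE replicate 2. Fabp5, a fatty acid carrier, was at 7.34, 8.63 and 7.76 in CDE and 7.26 and 6.36 in UTR, Cidea, a lipid droplet protein, at 6.94, 6.84 and 6.78 against 6.40 and 6.21, and G0s2, an inhibitor of fat breakdown, at 8.28, 8.08 and 8.50 against 7.78 and 8.03. Apob, the protein of very low density lipoprotein, was at 8.81, 9.61 and 9.36 in CDE and 8.26 and 8.90 in UTR, so its arrays overlapped. The difference of Fabp5 was 1.10, and 0.65 without UTR replicate 2. On the sterol and fatty acid synthesis list 20 of 27 genes were below 0 with a median of -0.20, which was -0.08 without CDE replicate 2. Acly, which makes cytosolic acetyl-CoA, was at 9.11, 8.90 and 9.11 in CDE and 9.44 and 9.47 in UTR, and Srebf2, the master factor of sterol synthesis, at 9.57, 9.33 and 9.68 against 9.90 and 9.89. Both were lower on every CDE array, by -0.42 ± 0.10 and -0.37 ± 0.12 (adjusted p = 0.578 and 0.692).

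The neutrophil chemokines Cxcl2 and Cxcl5 were lower than in DDC, and other chemokines varied. Cxcl2, a neutrophil chemokine, was at 7.20, 6.94 and 7.40 in CDE, 7.11 and 6.10 in UTR and 10.81, 10.46 and 9.75 in DDC. Cxcl5, another, was at 7.84, 8.25 and 8.37 in CDE, 8.54 and 9.89 in UTR and 10.41 to 10.59 in DDC. Both were called lower in CDE than in DDC, by -3.16 (adjusted p = 0.0107) and -2.36 (adjusted p = 0.0199), while Cxcl2 overlapped with UTR and Cxcl5 lay below it. The difference of Cxcl5 from UTR was -1.06, and -0.39 without UTR replicate 2. Cxcl9, which attracts T cells, was at 7.21, 8.16 and 7.23 in CDE, 6.68 and 6.61 in UTR and 6.62, 6.32 and 6.83 in DDC, above both groups on every CDE array. Ccl9 was at 6.94, 7.52 and 7.57 in CDE, 6.72 and 5.61 in UTR and 7.42, 6.97 and 6.16 in DDC, and Cx3cl1, or fractalkine, at 8.45, 7.79 and 8.38 in CDE against 9.07 and 8.79 in UTR. Neither Cxcl9 nor Ccl9 was called against DDC (adjusted p = 0.131 and 0.586), and without UTR replicate 2 the difference of Ccl9 from UTR was 0.63, against 1.18 with it. Of 38 chemokine and cytokine genes 7 were called lower than in DDC and 0 higher, beside 0.418% and 0.742% over all genes. Against UTR 20 were above 0 with a median of 0.01, and 3 were higher and 3 lower at an unadjusted p under 0.05. Against UTR these counts were 0 higher and 6 lower without UTR replicate 2, and 1 and 3 without CDE replicate 2. That median was below 0 with arrays centred on their medians.

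Immediate early genes, which respond to stimuli within minutes, lay mostly below 0. Of 28 genes 23 were below 0 with a median of -0.22, and 0 were higher and 3 lower at an unadjusted p under 0.05. The lower count was 0 without UTR replicate 2, with a median of -0.15, and 2 without CDE replicate 2. Klf4, a Krüppel-like factor, was at 5.79, 5.87 and 6.21 in CDE, 6.63 and 6.82 in UTR and 7.70, 7.22 and 6.86 in DDC, and was called lower than in DDC by -1.31 (adjusted p = 0.0355). Fos, an AP-1 subunit, was at 8.27, 8.82 and 9.04 in CDE and 9.03 and 10.28 in UTR, so its arrays overlapped. Rhob, a small GTPase, was at 7.87, 7.59 and 7.95 in CDE against 8.19 on both UTR arrays.

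Against DDC 3 of 21 clock genes were called higher in CDE and 5 lower, beside 0.742% and 0.418% over all genes. The 3 called higher are not among the clock genes named below. Against UTR clock genes lay mostly below 0. Of 21 genes 17 were below 0 with a median of -0.20, and 0 were higher and 4 lower at an unadjusted p under 0.05. Nr1d1, a clock repressor, was at 9.98, 10.37 and 9.86 in CDE and 10.52 and 10.91 in UTR, and Usp2, a rhythmic deubiquitinase, at 7.12, 7.08 and 7.17 against 7.43 and 7.67. Dbp, a clock output factor, was at 7.40, 7.72 and 7.25 in CDE, 7.72 and 8.20 in UTR and 8.45 to 8.83 in DDC, and was called lower than in DDC by -1.18 (adjusted p = 0.0277). Tsc22d3, a glucocorticoid target, was at 9.23, 8.40 and 9.23 in CDE against 9.57 and 9.70. Without UTR replicate 2 the median was -0.07 and the lower count was 1.

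Matrix genes and growth factor genes divided in both directions. Thbs1, thrombospondin, was at 7.29, 8.03 and 8.14 in CDE and 7.11 and 6.85 in UTR, and the integrin gene Itga2 at 8.58, 8.95 and 8.86 against 8.43 and 7.27. Lower were Itga3, at 9.86, 9.60 and 9.86 against 10.63 and 9.95, and Lama3, a laminin chain, at 5.41, 5.28 and 5.07 against 5.51 and 6.0. Of 35 matrix genes 16 were above 0, the median was -0.03, and 4 were higher and 2 lower at an unadjusted p under 0.05. These counts were 0 and 4 without UTR replicate 2 and 2 and 1 without CDE replicate 2. Of 31 growth factor genes 13 were above 0, the median was -0.04, and 2 were higher and 3 lower, with 0 and 3 without UTR replicate 2 and 3 and 4 without CDE replicate 2. Igfbp4 was at 8.99, 9.28 and 9.15 in CDE and 8.62 and 8.42 in UTR, Btc, a ligand of the epidermal growth factor receptor, at 7.67, 7.50 and 7.78 against 7.33 and 7.11, and Igf1r, the receptor of insulin-like growth factor, at 8.14, 7.55 and 8.19 against 8.82 and 8.52. The difference of Itga2 was 0.94, and 0.36 without UTR replicate 2. None of these genes overlapped between CDE and UTR, and their adjusted p ran from 0.655 to 0.723. They were chosen for a low p on their lists, so the lack of overlap follows in part from that choice.

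Markers of other cells were read beside these values. Of 18 sinusoidal endothelial genes 16 were below 0 with a median of -0.27, and 0 were higher and 4 lower at an unadjusted p under 0.05. Without UTR replicate 2 the median was -0.12 and the lower count was 0. The array means of that list shifted by -0.42, -0.21 and -0.17 in CDE and by -0.21 and 0.21 in UTR. Macrophage and Kupffer cell genes shifted by -0.49, -0.24 and 0.44 in the CDE arrays. Of 17 such genes 7 were above 0 and 10 below, with a median of -0.11. Cd68, which had the highest difference of that list, was at 7.67, 8.21 and 8.76 in CDE and 7.14 and 7.57 in UTR. Medians of the stellate cell, lymphocyte, neutrophil and erythroid lists lay between -0.04 and 0.09. The part of these cells in the other differences was not tested.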

How the data were processed

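RNA of YFP+ liver cells sorted from CDE-fed (3 samples), untreated (2) and DDC-fed (3) mice had been read on 1-colour arrays. The log2 expression values are those that the authors deposited, 1 per feature and array, with no counts. The base was inferred from their range (2.55 to 13.55), and the background correction, normalization and probe summary are not named in the labels. No further scaling was applied. Of 25206 deposited features 23185 had 1 symbol in the platform annotation, each matched to RefSeq (GRCm38.p6), and 2021 are unnamed here. Some listed genes are not reported here.

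The 8 YFP+ arrays entered 1 limma fit of group means (version 3.58.1, R 4.3.3; lmFit and eBayes, 5 residual degrees of freedom, two-sided), with Benjamini-Hochberg adjustment over all genes and a threshold of 0.05. The script was tested on simulated data. The number of arrays limits the precision. For 35 gene lists counts and medians were taken, with no set test. Named genes are the 15 largest differences each way at an unadjusted p under 0.05, with arrays apart and a mean of at least 6 in the higher group (predicted genes, small RNAs and olfactory receptors left out), up to 4 lowest-p members of each described list, the 5 lowest p of all, and fixed marker genes. Members, lists and rules were chosen with earlier results of these data known. Alternatives changed the arrays in the fit, scaling, filter, variance prior, array weights, replicate block and size, and left out each array. Medians of lists without UTR or CDE replicate 2 were added after seeing the data.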

Additional observations from a re-analysis of the deposited data

Results flagged for a closer look

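Among the named genes, 21 differed between the CDE and the DDC diet in a test of that difference itself, the CDE minus DDC contrast of the same limma fit with adjustment over all genes. All values are log2 differences. Higher in CDE were Hamp by 5.68, Serpina6 by 3.46, Hamp2 by 3.10, Rnu7 by 2.50, C9 by 2.24, Nrn1 by 2.00, Serpina1b by 1.91, Id1 by 1.75, Gpc3 by 1.67, Lifr by 0.90 and Alb by 0.73. Lower in CDE were Cxcl2 at -3.16, S100b at -2.41, Cxcl5 at -2.36, Hp at -1.88, Lbp at -1.56, Klf4 at -1.31, Dbp at -1.18, Uhrf1 at -0.80, Cd44 at -0.75 and Muc1 at -0.69. With each CDE and DDC array left out in turn, Rnu7 and C9 passed every time and the other 19 lost the call at least once. Nrn1, Lifr, Muc1, Cd44, Uhrf1 and Cxcl5 kept it in no leave-out, and Id1, Hp, Klf4 and Dbp in 1. Hamp, Hamp2, Serpina6, Serpina1b and Alb kept it in 2, S100b in 3, Gpc3 and Cxcl2 in 4 and Lbp in 5. Leaving out CDE replicate 3 ended 18 of the 21 calls, CDE replicate 1 ended 16, CDE replicate 2 ended 9, DDC replicate 1 ended 16, DDC replicate 2 ended 15 and DDC replicate 3 ended 10.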

How the results depend on the processing

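For CDE minus UTR the count past an adjusted p of 0.05 was 0 with the 5 arrays alone, with all 11 arrays, with quantile normalization, among genes above the median, over all features and with the replicate number as a block. It was 1, Rnu7, with arrays centred on their medians, with the trended robust prior and with array weights. Leaving out 1 array gave 0 to 46, with 46 without UTR replicate 1 and 1 (Olfr1303) without UTR replicate 2. Under the size rule the count of 94 became 375 at 0.6 log2 units and 97 to 250 with 1 array left out, and the split of 51 higher and 43 lower became 39 and 27 among brighter genes. For CDE minus DDC the count of 269 was 61 with the replicate block and 16 to 123 with 1 array left out, and the split of 172 higher and 97 lower became 141 and 130 under quantile normalization. Whether replicate numbers pair the samples is not stated in the labels. Deviations of same-numbered samples from their group means correlated at -0.072 to 0.13. With 2 or 3 arrays per group such correlations cannot settle whether samples were paired. The block ended 12 of the 21 named calls against DDC, the fit of 6 arrays 5 and quantile normalization 2. Without UTR replicate 1, 11 named genes passed against UTR. Signs turned for 5 genes near 0: Mki67 was -0.16 with the block and -0.19 to 0.37 with 1 array left out, Afp -0.047 to 0.083, Sox9 -0.0996 to 0.064, Id2 -0.17 to 0.026 and Tnfrsf12a -0.49 to 0.16. The cause was not tested. Medians of lists near 0 have no settled sign across these settings, and this was not limited to those within 0.03 of 0. Without UTR replicate 2 the median of ductal ion and bile transport went from -0.049 to 0.0027. That of the interferon response list went from -0.050 to 0.19 in the same way, and that of the YAP and TEAD list from -0.14 to 0.024 without UTR replicate 1. With 2 untreated arrays, differences of single genes near the spread of those arrays were not detectable, and far larger ones also did not pass. Hamp differed by 5.73, with a standard deviation of 0.58 between the untreated arrays, and its adjusted p in limma was 0.264. The smallest detectable difference is not given here.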
